A study of Mus musculus with 6 samples.

Results

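The 38 genes described here serve DNA replication and cell division. They were taken from the deposited table of 24532 genes by symbol, and all 38 were present. Of these, 23 are mitosis genes and 15 are replication genes, and the 2 groups were kept apart throughout. Bulk RNA-seq was performed on mouse kidney and ureter at postnatal day 1 (PN1), with 2 kidney libraries of each genotype, Ahnak KO and WT, and 1 ureter library of each. In the Ahnak KO mice exon 5 of Ahnak was disrupted. WT mice carried no stated allele, and strain and sex were not given in the sources used here. RNA came from 2 to 4 organs, kidneys or ureters, according to the methods, so a library may pool animals. The ureter libraries carry kidney in their titles and were placed by their tissue label.

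A cell that divides first copies its DNA in S phase and then separates the copies in mitosis. E2F factors and cyclin E start S phase, origins are licensed by Cdc6, Cdt1 and the ring of Mcm proteins, and Pcna clamps the polymerases to DNA. Cyclins A and B with Cdk1, the Aurora and Polo kinases, the spindle motors and the kinetochore then carry out mitosis, and Cdc20 with Ube2c directs the anaphase-promoting complex to end it. The newborn mouse kidney still forms nephrons from dividing progenitors, while the ureter at this age is a tube of urothelium wrapped in smooth muscle.

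The libraries held 36410246 to 66095616 counts, and the members had between 321 and 42419 counts in any library, so counting error was small for each of them. Levels are given as CPM, counts scaled to library size with edgeR's TMM factors over the 6 libraries, which were 1.06 to 1.08 in kidney, 0.935 in WT ureter and 0.819 in Ahnak KO ureter. Ahnak itself was counted in every library, at 139 and 131 CPM in Ahnak KO kidney, 184 and 189 CPM in WT kidney, 634 CPM in Ahnak KO ureter and 728 CPM in WT ureter. It was lower in both Ahnak KO kidneys than in both WT kidneys (log2 fold change -0.47, SE 0.0961), a fall that edgeR did not call, and counts over the whole gene neither show that exon 5 was disrupted nor check the genotype labels. The tissue labels were checked with marker genes. The 8 kidney tubule markers summed to 481 to 679 TPM (the authors' level per transcript length) in kidney and to 0.125 and 0.0658 TPM in the Ahnak KO and WT ureters, where 6 and 7 of the 8 were at 3 counts or fewer. The 6 urothelium markers summed to 85.1 to 103 TPM in kidney and to 7860 and 8490 TPM in ureter. Ahnak KO kidney 1 had abundant Xist and no counts of the Y chromosome genes Ddx3y, Eif2s3y, Kdm5d and Uty, the reverse of the other 5 libraries.

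The promoters of the members show how the 2 groups differ in sequence, and 5 stretches just upstream of the start site are printed for that reason. RefSeq promoter windows on GRCm38.p6, from 250 bases before to 50 bases after the start site, were matched for 30 of the 38 members. Kif20a, Ccne2, Tpx2, Gins2, Ccna2, Aurkb, Mcm4 and Foxm1 were not matched. Each window was searched on both strands for 3 motifs. These were the CCAAT box (CCAAT), the CHR element (TTTGAA), a cell cycle element that MuvB complexes bind, and the E2F motif (TTTCCCGC, TTTCGCGC, TTTGCCGC or TTTGGCGC). In the sequences, capitals mark every match, so that the opposite strand of a CCAAT box reads ATTGG and that of a CHR element reads TTCAAA. Each is written 5′ to 3′ on the strand of its gene and ends at the base before the start site. The mitosis genes Ccnb2 (chr9:70421555-70421674, minus strand), Cdk1 (chr10:69352913-69353032, minus strand) and Top2a (chr11:99024190-99024309, minus strand) are followed by the replication genes Mcm6 (chr1:128359706-128359825, minus strand) and Cdc6 (chr11:98908001-98908150, plus strand).
Ccnb2: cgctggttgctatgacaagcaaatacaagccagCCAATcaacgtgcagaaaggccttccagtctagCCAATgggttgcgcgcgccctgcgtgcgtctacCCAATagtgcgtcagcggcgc
Cdk1: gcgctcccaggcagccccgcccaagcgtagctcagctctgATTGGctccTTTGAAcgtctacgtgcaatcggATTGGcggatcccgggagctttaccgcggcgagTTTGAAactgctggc
Top2a: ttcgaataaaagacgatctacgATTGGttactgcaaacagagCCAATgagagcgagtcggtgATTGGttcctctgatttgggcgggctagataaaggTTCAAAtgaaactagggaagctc
Mcm6: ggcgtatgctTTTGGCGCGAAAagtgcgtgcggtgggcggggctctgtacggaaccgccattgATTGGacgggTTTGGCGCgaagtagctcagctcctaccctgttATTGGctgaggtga
Cdc6: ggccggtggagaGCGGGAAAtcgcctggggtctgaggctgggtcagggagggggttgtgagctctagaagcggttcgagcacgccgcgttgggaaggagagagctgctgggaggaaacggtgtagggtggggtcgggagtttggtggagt

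Ccnb2, a B-type cyclin, has 3 CCAAT boxes in the stretch shown, which begin 87, 54 and 21 bases before the start site. Its CHR elements lie outside the stretch, 167 bases before and just past the start site. Cdk1, the kinase that B-type cyclins activate, has CCAAT boxes beginning 80 and 48 bases and CHR elements beginning 71 and 15 bases before the start site. Outside the stretch shown, a further CCAAT box begins 208 bases and an E2F match 131 bases before the start site of Cdk1. Top2a, which untangles sister DNA, has 3 CCAAT boxes and 1 CHR element in the stretch shown. In Mcm6, a subunit of the replicative helicase, 2 overlapping E2F matches on opposite strands begin 110 and 106 bases before the start site and another begins 47 bases before it. Cdc6, which loads that helicase on origins, has an E2F match on the opposite strand that begins 138 bases before the start site.

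A CHR element was found in 73.7% of the mitosis promoters (14 of 19), in 7.69% of the replication promoters (1 of 13, that of Mcm2) and in 17.9% of all 32851 promoter windows. An E2F motif was found in 5.26% of the mitosis promoters (1 of 19, that of Cdk1), in 46.2% of the replication promoters (6 of 13) and in 2.26% of all windows. The CCAAT box, which many promoters hold, was found in 84.2%, 61.5% and 37.4% respectively. A CCAAT box and a CHR element stood together in 68.4% of the mitosis promoters, 7.69% of the replication promoters and 6.95% of all windows. Prc1 and Mcm7 have 2 windows each, and these overlap for Prc1. The matches describe letters in a window, and binding was not measured.

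**Figure D1:**
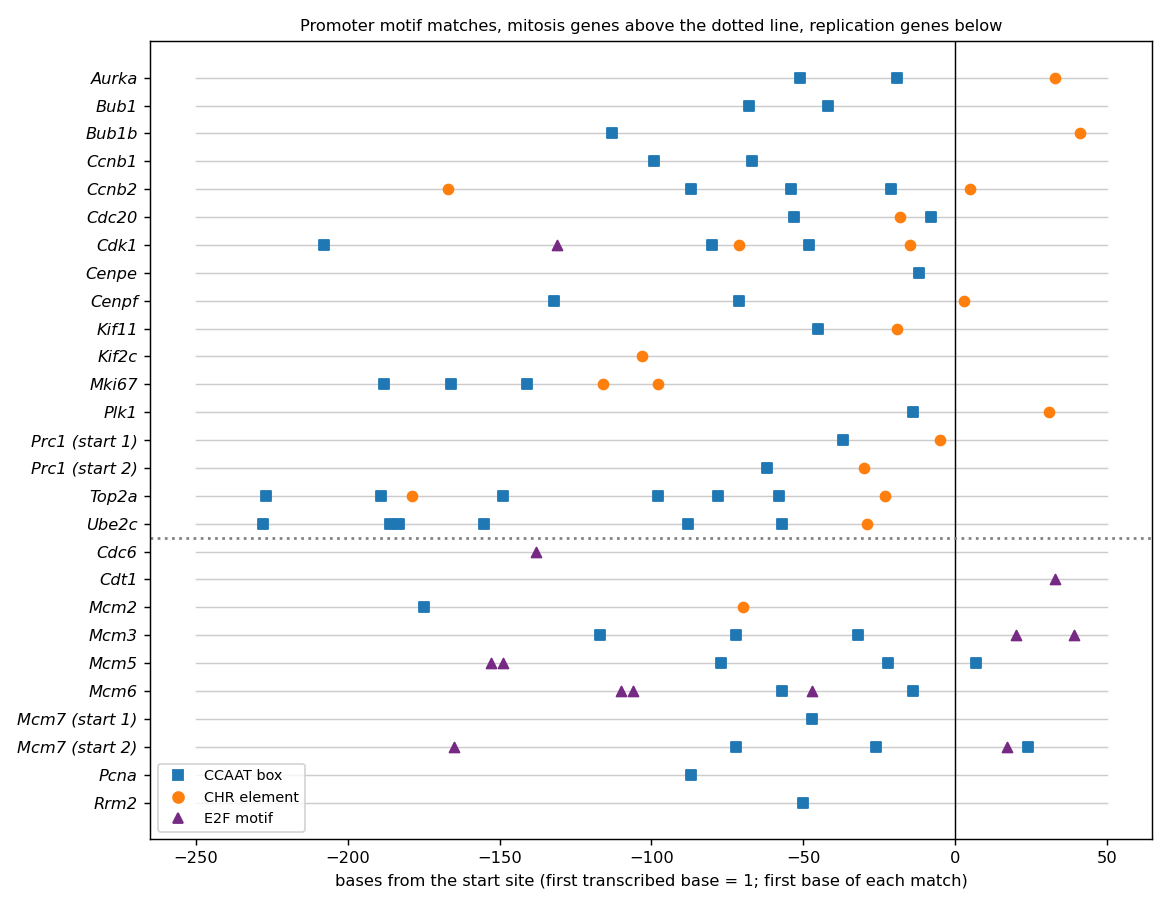
Motif matches in the promoter windows of the members with at least 1 match, with bases from the start site on the horizontal axis and 1 window per line. Squares (CCAAT boxes) stand in both groups, circles (CHR elements) in 14 mitosis windows and 1 replication window, and triangles (E2F motifs) in 6 replication windows and 1 mitosis window.

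Every member was expressed in both tissues. Compared per length, Pcna had the highest level in both, at 353 ± 32.3 TPM (SD, n = 4 libraries) in kidney and 208 to 226 TPM in ureter. Ube2c, the ubiquitin-conjugating enzyme of the anaphase-promoting complex, came next at 201 ± 28.3 TPM (SD, n = 4) in kidney, and Top2a followed at 191 ± 20.3 TPM (SD, n = 4), a gap smaller than either SD. Cdc6 had the lowest level in both tissues, at 9.28 ± 2.69 TPM (SD, n = 4) in kidney and 3.57 to 7.26 TPM in ureter. Ccne2, at 10.3 ± 2.15 TPM (SD, n = 4) in kidney, did not differ from it beyond the spread.

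Summed over the 23 mitosis genes, the level was 1980 and 1900 TPM in Ahnak KO kidney, 1980 and 2240 TPM in WT kidney, 684 TPM in Ahnak KO ureter and 1020 TPM in WT ureter. The 15 replication genes summed to 1230 and 1050 TPM in Ahnak KO kidney, 1160 and 1280 TPM in WT kidney, 532 TPM in Ahnak KO ureter and 682 TPM in WT ureter. Both sums were higher in each kidney library than in either ureter library. TPM is not TMM-scaled, and in CPM the gap between the ureters was smaller. There the mitosis genes summed to 1407 CPM in Ahnak KO ureter and 1804 CPM in WT ureter, and the replication genes to 740 and 876.6 CPM. In TPM, the ratio of the mitosis sum to the replication sum was 1.61 to 1.81 in kidney, 1.5 in WT ureter and 1.29 in Ahnak KO ureter.

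**Figure D2:**
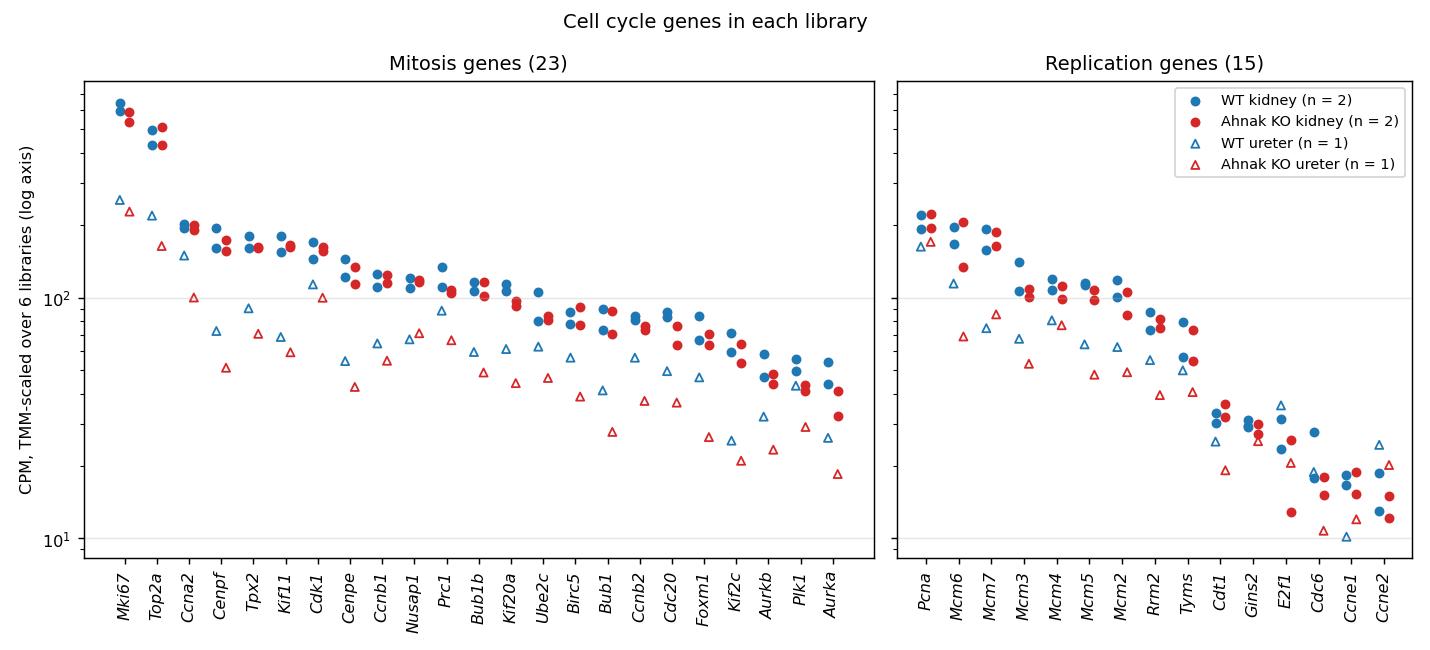
CPM of each member in each library on a log axis, mitosis genes on the left and replication genes on the right, ordered by kidney level. Filled circles are kidney libraries and open triangles ureter libraries, in blue for WT and red for Ahnak KO. The triangles lie below all circles for 22 of 23 mitosis genes and 11 of 15 replication genes.

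Kidney was compared with ureter to ask how proliferation genes differ between the organs. All 23 mitosis genes were higher in kidney, by a median of 0.972 on the log2 scale, against a median of 0.0756 over all genes tested. Of the 15 replication genes, 9 were higher, 1 was lower and 5 did not pass the test, with a median of 0.568. Over all 16873 genes tested, 23.7% were called higher and 21.4% lower in kidney (edgeR's quasi-likelihood test on 6 libraries with genotype as a term, Benjamini-Hochberg adjusted p under 0.05). The 4 kidney libraries lay above both ureter libraries for 22 mitosis and 11 replication genes, while this was the case for 32.8% of all genes tested. The columns of kidney 2 and of the ureter share a number within each genotype, and whether they came from the same mice is not given in the sources used here, so the test took them as independent. In bulk tissue, fewer cells of a type and less RNA per cell cannot be told apart.

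The kinetochore and checkpoint genes had a larger median difference than the other mitosis groups of 2 or more genes, 1.33 over 4 genes. Cenpf, a kinetochore protein, had 174 and 156 CPM in Ahnak KO kidney, 160 and 194 CPM in WT kidney, 51.2 CPM in Ahnak KO ureter and 72.7 CPM in WT ureter. The kidney libraries were thus well apart from the ureter libraries, and the log2 fold change was 1.48 (SE 0.147, adjusted p = 0.000493 in edgeR). Cenpe, a kinetochore motor, was higher by 1.41 (SE 0.135), Bub1, a checkpoint kinase, by 1.24 (SE 0.184), and Bub1b, which restrains Cdc20 until chromosomes are attached, by 1.03 (SE 0.117).

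Spindle and midzone genes differed by 0.569 to 1.42 on the log2 scale over 7 genes. Kif11, the motor that separates spindle poles, had 162 and 165 CPM in Ahnak KO kidney, 154 and 180 CPM in WT kidney, and 59.3 and 68.7 CPM in the Ahnak KO and WT ureters. The groups did not overlap, and the log2 fold change was 1.37 (SE 0.11, adjusted p = 0.000199 in edgeR). Kif2c, which takes microtubules apart at kinetochores, was higher by 1.42 (SE 0.14) and Tpx2, which activates Aurka on the spindle, by 1.05 (SE 0.109). Kif20a, needed for cytokinesis, was higher by 0.97, Birc5, a subunit of the chromosomal passenger complex, by 0.82, Nusap1, a microtubule-binding protein, by 0.75, and Prc1, which bundles microtubules of the midzone, by 0.57.

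The cyclins and kinases differed less, with a median of 0.764 over 7 genes. Ccnb1, a B-type cyclin, was higher in kidney by 0.99 (SE 0.113), Ccnb2 by 0.76 (SE 0.13), Ccna2, the A-type cyclin of S phase and mitosis, by 0.68 (SE 0.143), and Cdk1 by 0.57 (SE 0.109). Of the kinases, Aurka of the spindle poles was higher by 0.94 (SE 0.16) and Aurkb of the passenger complex by 0.84 (SE 0.143). Plk1, the Polo kinase, had 40.8 and 43.5 CPM in Ahnak KO kidney, 49.7 and 55.4 CPM in WT kidney, 29.1 CPM in Ahnak KO ureter and 43.1 CPM in WT ureter. It was the only mitosis gene whose kidney and ureter libraries overlapped, with the smallest log2 fold change of the 23, 0.41 (SE 0.116, adjusted p = 0.0301 in edgeR).

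Mki67, which encodes the proliferation antigen Ki-67, had 591 and 539 CPM in Ahnak KO kidney, 596 and 646 CPM in WT kidney, 228 CPM in Ahnak KO ureter and 255 CPM in WT ureter. It was 2.46-fold higher in kidney (log2 fold change 1.296, SE 0.1, adjusted p = 0.00017 in edgeR), and Top2a was 2.45-fold higher. Foxm1, the factor that drives many mitosis genes, was higher by 1.003 (SE 0.19), Cdc20 by 0.85 and Ube2c by 0.70.

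Among the replication genes, the origin licensing genes were higher in kidney in 7 of 8 cases, with a median of 0.901. Mcm7, a helicase subunit, had 163 and 187 CPM in Ahnak KO kidney, 194 and 158 CPM in WT kidney, 85.3 CPM in Ahnak KO ureter and 74.7 CPM in WT ureter. Its log2 fold change of 1.13 (SE 0.13, adjusted p = 0.000875 in edgeR) was the largest of the 15. The helicase subunits Mcm2, Mcm3, Mcm5 and Mcm6 were higher by 0.88 to 0.97, Mcm4 by 0.48 and Cdt1, the licensing factor, by 0.57. Cdc6 did not pass the test (0.44, SE 0.227, adjusted p = 0.162 in edgeR), and its kidney and ureter libraries overlapped. It passed in edgeR with library size alone (0.72, adjusted p = 0.0481), where the median of all genes was 0.365, and without WT kidney 1 (0.59, adjusted p = 0.0463).

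The genes at the entry to S phase did not share a direction. Ccne1 and Ccne2 encode the E-type cyclins that bind Cdk2. Ccne1 had 18.8 and 15.3 CPM in Ahnak KO kidney, 18.3 and 16.7 CPM in WT kidney, 12.0 CPM in Ahnak KO ureter and 10.2 CPM in WT ureter, and was higher in kidney by 0.64 (SE 0.176, adjusted p = 0.0258 in edgeR). Ccne2 had 14.97 and 12.21 CPM in Ahnak KO kidney, 13.0 and 18.7 CPM in WT kidney, 20.2 CPM in Ahnak KO ureter and 24.5 CPM in WT ureter. All 4 kidney libraries lay below both ureter libraries for Ccne2, the only member of which this was the case. Its log2 fold change was -0.60 (SE 0.195, adjusted p = 0.0455 in edgeR), and this call was lost with no filter on low counts, with library size as the only scaling and without any 1 library other than WT kidney 2. The call of Ccne1 was lost without any 1 library other than Ahnak KO kidney 2 (adjusted p from 0.0506 to 0.13 in edgeR). E2f1, an E2F activator, had 12.9 and 25.8 CPM in Ahnak KO kidney, 23.6 and 31.5 CPM in WT kidney, 20.6 CPM in Ahnak KO ureter and 35.7 CPM in WT ureter, which overlapped (log2 fold change -0.24, SE 0.286, adjusted p = 0.531 in edgeR). Its level in Ahnak KO kidney 1 was the lowest of the 6 libraries.

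The fork genes Pcna and Gins2 did not pass the test. Pcna had 224 and 195 CPM in Ahnak KO kidney, 194 and 222 CPM in WT kidney, and 171 and 163 CPM in the Ahnak KO and WT ureters. The kidney libraries lay above the ureter libraries by a small step, and the log2 fold change of 0.32 (SE 0.111, adjusted p = 0.0557 in edgeR) did not pass, while the Wald test of DESeq2 gave an adjusted p of 0.0202. Gins2, a subunit of the active helicase, had 27.3 to 31.2 CPM in kidney and 25.4 and 30.4 CPM in ureter, with a log2 fold change of 0.08 (SE 0.128, adjusted p = 0.659 in edgeR). Rrm2, a subunit of ribonucleotide reductase, was higher in kidney by 0.76 (SE 0.146), and Tyms, which makes thymidylate, had a log2 fold change of 0.55 (SE 0.191, adjusted p = 0.0572 in edgeR). Tyms passed in DESeq2 (adjusted p = 0.0256), with at least 10 counts in every library, in limma on FPKM, with library size alone and without WT kidney 1 (adjusted p from 0.0154 to 0.047). Pcna also passed with the 10-count minimum, in limma and with library size alone (adjusted p from 0.00303 to 0.0468), and Gins2 in limma (adjusted p = 0.0405). The median of all genes was itself 0.244 in limma and 0.365 with library size alone, against 0.0756 in the main test.

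**Figure D3:**
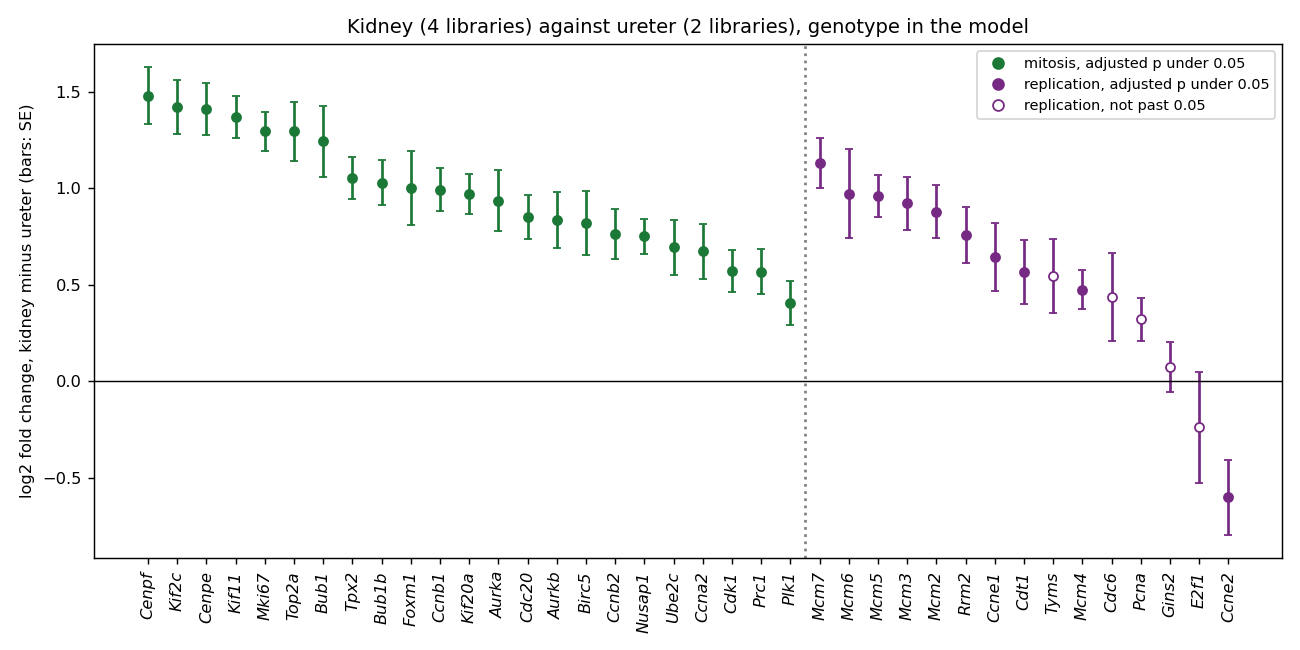
Log2 fold change of kidney over ureter for each member with its SE, mitosis genes in green on the left and replication genes in purple on the right. Filled points passed an adjusted p of 0.05. The 23 mitosis genes lie between 0.407 and 1.48, while the replication genes run from -0.60 to 1.13.

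Within each genotype the direction of the medians held. Within WT, the medians were 0.853 for mitosis and 0.497 for replication genes, against 0.073 for all genes tested. Within Ahnak KO they were 1.12 and 0.653, against 0.0947 for all genes tested. Each of these fits sets 1 ureter library against 2 kidney libraries, whose spread the lone library is assumed to share. The same member medians were obtained by leaving out the other ureter library. Without Ahnak KO ureter the call was lost for Ccna2, Cdk1, Plk1, Ube2c, Prc1 and Birc5 among the mitosis genes and for Ccne1, Cdt1, Mcm4, Mcm6 and Rrm2 among the replication genes (adjusted p from 0.0506 to 0.212 in edgeR). Without WT ureter it was lost for Ccne1 and Mcm4. Leaving out a kidney library ended the calls of Plk1 (without either Ahnak KO library or WT kidney 2) and Cdt1 (without either Ahnak KO library or WT kidney 1). Cell composition differed between the tissues in the same contrast. Nephron progenitor markers were higher in kidney for 7 of 8 genes, while Osr1 was called lower in kidney (log2 fold change -2.24, SE 0.146). The 8 summed to 470 to 496 TPM in kidney and to 76.6 and 101 TPM in the Ahnak KO and WT ureters. In these ureters 1 and 0 of the 8 were at 3 counts or fewer. The 8 tubule markers were all higher in kidney. All 6 urothelium and all 6 smooth muscle markers were lower in kidney (smooth muscle 443 to 544 TPM against 4360 and 5680 TPM). Of the macrophage markers 4 of 6 were lower in kidney, and of the erythroid markers 1 of 7 was higher and 1 lower. Their part in the result was not tested.

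Wider lists of cell cycle genes were read in the same comparison. Of 40 further genes of the mitosis machinery, 35 were higher in kidney and 0 lower, with a median of 0.781. The spindle genes Kif15 (1.78, SE 0.112) and Aspm (1.59, SE 0.137) differed most. Of 40 further genes of the replication machinery, 27 were higher and 0 lower, with a median of 0.497, led by the origin recognition subunit Orc1 (1.29, SE 0.309) and by Mcm10 (1.25, SE 0.23), and the largest values below 0 were those of the single-strand binding proteins Rpa1 (-0.52, SE 0.414) and Rpa3 (-0.23, SE 0.155), which did not pass. Of 14 E2F and MuvB factors, 8 were higher and 0 lower, with E2f2 (1.63, SE 0.333) and E2f5 (1.08, SE 0.128) at the top, and Lin54 (-0.37, SE 0.236) was not called.

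The D-type cyclins, which link growth signals to the RB pathway, went in different directions. Ccnd1 had 326 to 355 CPM in the kidney libraries and 161 and 174 CPM in the Ahnak KO and WT ureters, and was higher in kidney by 1.05 (SE 0.0947, adjusted p = 0.000333 in edgeR). Ccnd2 had 125 to 183 CPM in kidney and 476 and 458 CPM in the Ahnak KO and WT ureters, and was lower in kidney by 1.58 on the log2 scale (log2 fold change -1.58, SE 0.15, adjusted p = 0.000416 in edgeR). Ccnd3 was also lower (-0.40, SE 0.134, adjusted p = 0.0486 in edgeR), although its libraries overlapped, with 136 to 165 CPM in kidney and 161 and 233 CPM in the Ahnak KO and WT ureters, and Cdk4, the kinase partner of D-type cyclins, higher (0.79, SE 0.0924), so that 3 of 9 genes of this family were higher and 2 lower. Of the CDK inhibitors, 6 of 7 were tested, 0 were higher and 3 were lower in kidney. Cdkn1a, which encodes p21, had 32.0 to 49.4 CPM in kidney and 106 and 124 CPM in ureter (log2 fold change -1.38, SE 0.19), and Cdkn2b had 0.231 to 1.11 CPM in kidney and 6.71 and 7.90 CPM in ureter (-3.47, SE 0.562). At the other end of the list, Cdkn2d (0.18, SE 0.18) and Cdkn1c (0.07, SE 0.159) did not pass the test.

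**Figure D4:**
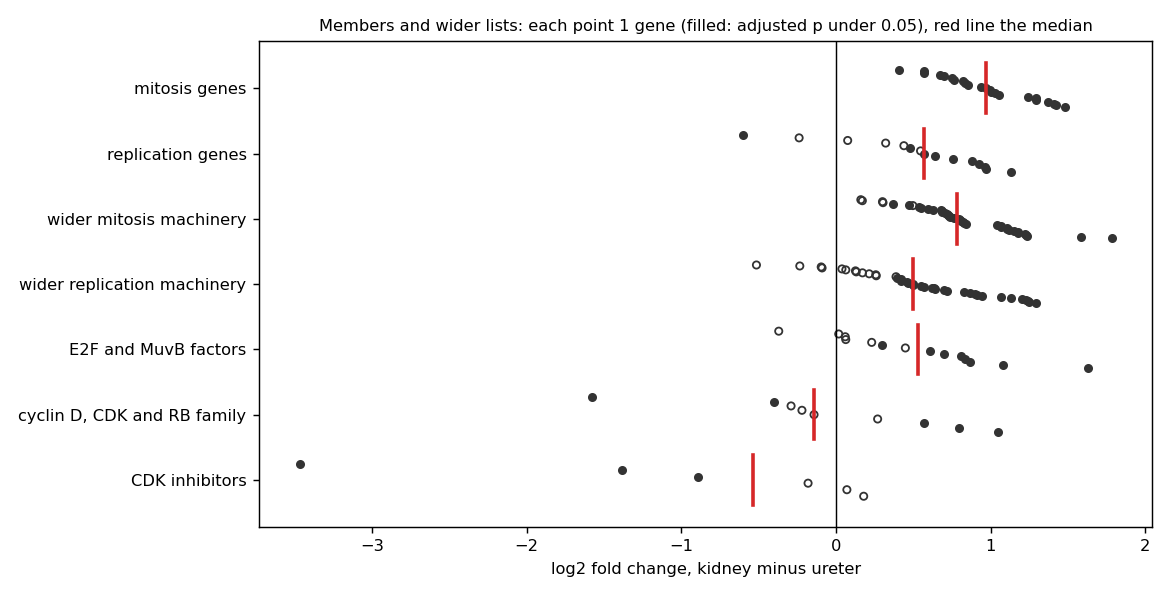
Log2 fold change of kidney over ureter for each gene of the member groups and of 5 wider lists, 1 point per gene, filled where the adjusted p was under 0.05, with the median of each list as a red line. The mitosis lists lie above 0 throughout, while the cyclin D and CDK inhibitor lists have medians of -0.142 and -0.537.

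Ahnak KO kidney was compared with WT kidney to ask whether these genes differed between the labelled genotypes at PN1. In edgeR's quasi-likelihood test of 2 against 2 libraries, 0 of 38 members were called and 0 had an unadjusted p under 0.05. Of the 16481 genes tested, 0.0121% were called and 227 had an unadjusted p under 0.05. DESeq2 called 0 members, where it called 44 of all genes, and gave Aurka and Plk1 an unadjusted p under 0.05. How many of all genes had such a p in DESeq2 is not given here. The log2 fold change was below 0 for 18 of 23 mitosis and 13 of 15 replication genes, against 51.1% of all genes tested, with medians of -0.0995 and -0.0908 against -0.00409 for all genes. Both Ahnak KO libraries lay below both WT libraries for 7 mitosis genes and 1 replication gene, where 13.3% of all genes did, and above them for 0 members, where 12.8% of all genes did.

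The 7 mitosis genes were Mki67, Ccnb2, Plk1, Aurka, Cdc20, Kif20a and Prc1, and the replication gene was Mcm5. Aurka had 32.1 and 40.8 CPM in Ahnak KO kidney and 43.6 and 54.1 CPM in WT kidney, a log2 fold change of -0.42 (SE 0.18), which ran from -0.605 without Ahnak KO kidney 2 to -0.257 without WT kidney 2. Plk1 had 40.8 and 43.5 CPM against 49.7 and 55.4 CPM (-0.32, SE 0.132), and Cdc20 had 63.7 and 76.2 CPM against 86.95 and 83 CPM (-0.28, SE 0.13). The value of Cdc20 ran from -0.415 without Ahnak KO kidney 2 to -0.159 without Ahnak KO kidney 1. The genotypes did not overlap for these 3 genes, with 2 libraries on each side.

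The lowest values were those of E2f1 (-0.51, SE 0.332) and Cdc6 (-0.46, SE 0.24), and both overlapped between genotypes. E2f1 was -0.098 without Ahnak KO kidney 1, the library with abundant Xist and no counts of the Y genes, and -1.09 without Ahnak KO kidney 2. Whether that feature bears on the kidney genotype differences was not tested. Cdc6 had 18.0 and 15.1 CPM in Ahnak KO kidney and 17.9 and 27.6 CPM in WT kidney, and its value ran from -0.738 without WT kidney 1 to -0.111 without WT kidney 2. The highest value was that of Cdt1, with 36.2 and 32.1 CPM in Ahnak KO kidney and 33.1 and 30.2 CPM in WT kidney (0.11, SE 0.136).

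WT kidney 2 held the highest of the 4 kidney values for 29 of 38 members, 19 of them mitosis genes. The share over all genes was not computed, so whether this is particular to the members is not known. Without it the mitosis median was 0.0107 and the replication median -0.0267, while without WT kidney 1 they were -0.193 and -0.182. Without Ahnak KO kidney 1 they were -0.133 and -0.198, and without Ahnak KO kidney 2 -0.0815 and -0.0255. In the wider lists 0 genes were called in this comparison. The medians were -0.0751 for mitosis machinery, -0.0553 for replication machinery, -0.047 for E2F and MuvB factors, -0.0665 for the cyclin D, CDK and RB family and 0.0529 for CDK inhibitors.

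The ureter was compared between 1 Ahnak KO and 1 WT library, so the differences have no replicate check and were not tested. The Ahnak KO ureter had the lower value for 22 of 23 mitosis genes, with a median log2 ratio of -0.421, and for 12 of 15 replication genes, with a median of -0.335. Over the 16117 genes compared, the median was -0.0155 and 51.3% were lower. A ratio more than 2-fold lower was seen for 0 members and for 5.75% of all genes compared. The Ahnak KO ureter held the lowest of the 6 libraries' values for 32 of 38 members. That count combines the tissue difference and the ureter difference already given, and it was not made over all genes.

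Foxm1 had the lowest ratio of the mitosis genes, with 26.4 CPM in Ahnak KO ureter and 46.7 CPM in WT ureter (log2 ratio -0.80). Among the cyclins, Ccnb2 had 37.3 and 56.4 CPM (-0.58) and Ccna2 had 100 and 150 CPM (-0.57). Plk1 stood at -0.55, Bub1 at -0.56, Birc5 at -0.52, Cenpf at -0.50 and Aurka at -0.48. The smallest falls were those of Mki67, with 228 and 255 CPM (-0.15), and of Cdk1, with 100 and 114 CPM (-0.18), and Nusap1, with 71.2 and 67.2 CPM, was the mitosis gene above 0 (0.09).

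The replication genes were more spread. Cdc6 had 10.8 CPM in Ahnak KO ureter and 18.9 CPM in WT ureter (-0.77), E2f1 had 20.6 and 35.7 CPM (-0.77), and Mcm6 had 69.0 and 115 CPM (-0.72). Mcm7, of the same helicase as Mcm6, had 85.3 and 74.7 CPM and lay above 0 (0.20), as did Ccne1 (0.23) and Pcna (0.07). The other helicase subunits lay between -0.41 (Mcm5) and -0.06 (Mcm4). The ratios of Mcm7, Pcna and Nusap1 were below 0 with library size as the only scaling and with FPKM, at -0.00151, -0.125 and -0.107 and at -0.0145, -0.138 and -0.126 respectively.

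**Figure D5:**
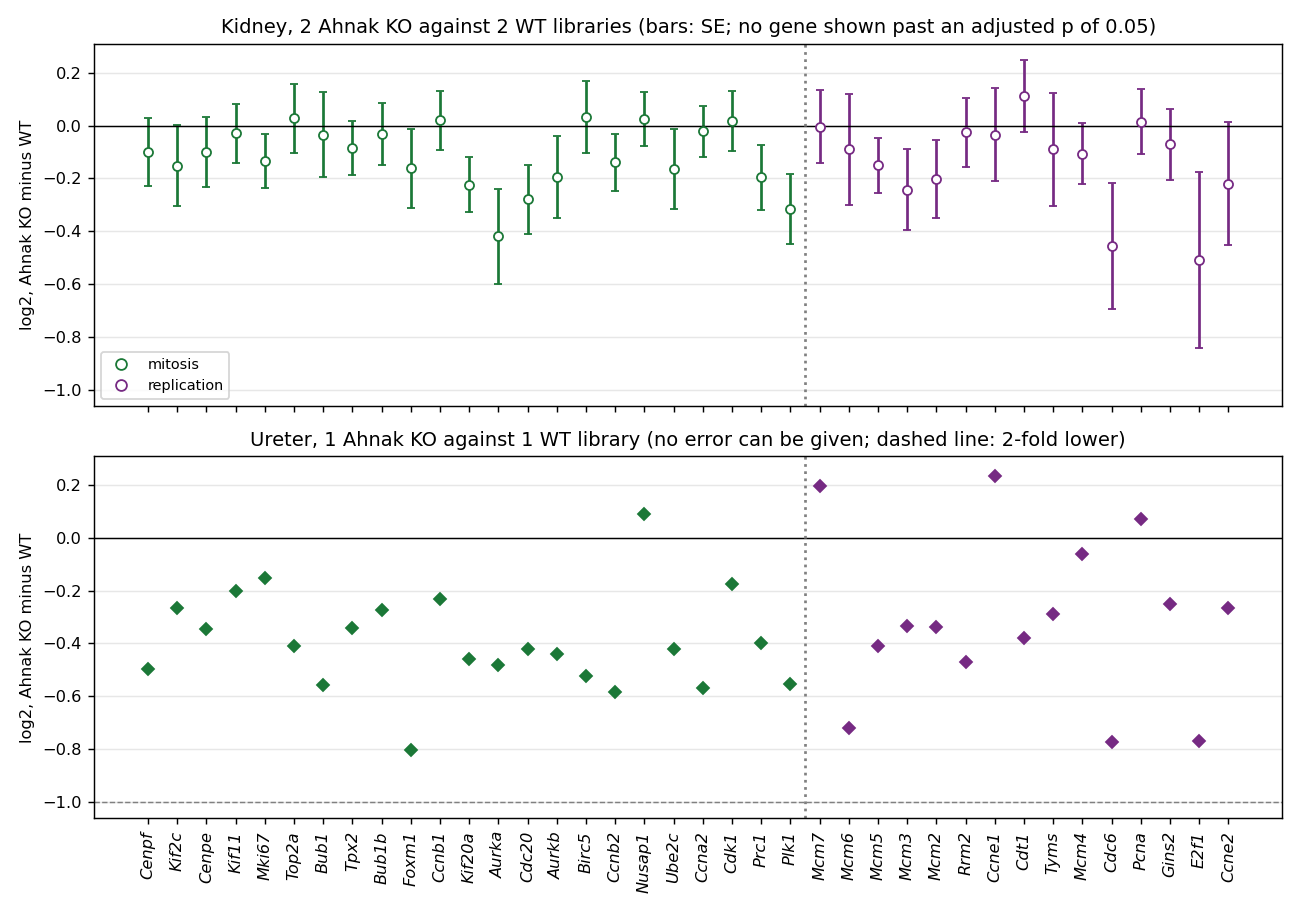
Log2 difference of Ahnak KO and WT for each member, in kidney above (2 against 2 libraries, bars are SE) and in ureter below (1 against 1 library, no error). Mitosis genes are green and replication genes purple. In kidney the members lie between -0.509 and 0.11, and in ureter between -0.805 and 0.234, with the dashed line at 2-fold lower.

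Other features of the libraries moved with the ureter difference. Rn45s, the ribosomal precursor, took 8.06% of the counts in Ahnak KO ureter and 0.496 to 0.632% in the other libraries. All 6 macrophage markers had a log2 ratio above 0 in Ahnak KO ureter (median 0.707, summed 294 TPM against 190 TPM, and 120 to 198 TPM in kidney, none at 0), led by C1qb (0.94) and C1qa (0.79). Summed erythroid markers were 1470 TPM in Ahnak KO ureter and 3630 TPM in WT ureter, against 1990 to 2710 TPM in kidney, with counts split between near-identical globin copies. Urothelium and smooth muscle markers had medians of 0.105 and -0.176. The part of these features in the lower cell cycle values was not tested. Of the wider lists, 36 of 40 mitosis machinery genes and 31 of 40 replication machinery genes were lower in Ahnak KO ureter, with medians of -0.359 and -0.166. Past 2-fold lower were Hjurp, which loads the centromeric histone (45.6 and 98.7 CPM, -1.10), and E2f2 (2.78 and 6.20 CPM, -1.01). The CDK inhibitors had a median of -0.375, with Cdkn1b at -0.59 and Cdkn2d at -0.56.

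Whether the genotype difference was unlike in the 2 tissues was tested as an interaction over the 6 libraries, with the lone ureter libraries assumed to vary as the kidney libraries did. Of the 38 members 0 were called in edgeR, where 0.108% of 17557 genes were. The difference of log2 fold changes ran from -0.66 (Foxm1, SE 0.265) to 0.28 (Ccne1, SE 0.321) over the members, and was -0.56 for Ccna2 (SE 0.176). The medians were -0.256 for mitosis and -0.188 for replication genes, against -0.00573 for all genes. The replication median was -0.0284 without Ahnak KO kidney 1 and -0.024 without WT kidney 1, and the mitosis median was -0.166 without WT kidney 1.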

How the data were processed

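RNA from PN1 kidney and ureter was sequenced by the authors, whose methods name a TruSeq Stranded mRNA kit, Cutadapt, STAR and Cufflinks, with GRCm39 as the genome. The submitters' processing notes name Trimmomatic 0.38, HISAT2 2.1.0, StringTie 1.3.4b and mm10 instead, and which were used could not be settled. The deposited table gives an estimated count (whole numbers), FPKM and TPM, both normalized by the authors, for 24532 genes. Whether strand was used in counting is not given in the sources used here.

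Read counts had been foreseen, and the quasi-likelihood test of edgeR 4.0.16 in R 4.3.3 was applied to these deposited estimates after filterByExpr and TMM scaling, with Benjamini-Hochberg adjustment. The fits had 2 residual degrees of freedom within kidney, 3 for kidney against ureter and 2 for the interaction. An SE was approximated as the size of the log2 fold change over the root of its F statistic. Between the ureter libraries log2 ratios of CPM + 0.5 were taken for genes with at least 10 counts. The methods state biological replicates in pairs, without naming the tissue or the animals in each library, so p-values measure the spread between these libraries. Alternatives used DESeq2 1.42.0, limma 3.58.1 on log2(FPKM + 1), other filters and scalings, a replicate block and leaving out each library. The code was tested on simulated data, with a spread below the common dispersion found here and changes larger than the members' genotype differences. That run checked the code and not the power to find small changes.

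The members and lists were chosen with earlier results of these data known. All 38 members are named, and from each wider or marker list the counts and up to 2 genes at each end with a mean of at least 1 CPM. The marker lists were nephron progenitor, kidney tubule, urothelium, smooth muscle, erythroid and macrophage genes. Kidney replicate numbers were not shown to pair the libraries (correlation of same-numbered deviations -0.193 over 16481 genes).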

Additional observations from a re-analysis of the deposited data

How the results depend on the processing

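In kidney, 0 members were called between Ahnak KO and WT under every alternative run, a replicate block and a crossed block (added after the data were examined) included, and with the block the medians were -0.0983 for mitosis and -0.108 for replication genes. The block changed no call, and over all alternatives the members' adjusted p ran from 0.173 (without Ahnak KO kidney 2) to 1. The mitosis median ran from -0.193 to 0.0107 when 1 kidney library was left out. Of the 38 members 18 kept their sign when any 1 kidney library was left out. The other 20 crossed 0: Top2a (-0.105 to 0.144), Cdk1 (-0.0956 to 0.135), Mcm7 (-0.146 to 0.15), Pcna (-0.0892 to 0.113), Ccna2 (-0.0547 to 0.00556), Ccnb1 (-0.0669 to 0.109), Bub1 (-0.207 to 0.114), Bub1b (-0.133 to 0.059), Cenpe (-0.218 to 0.0265), Birc5 (-0.104 to 0.153), Ccne1 (-0.195 to 0.105), Mcm6 (-0.436 to 0.184), Rrm2 (-0.146 to 0.101), Tyms (-0.324 to 0.172), Nusap1 (-0.0426 to 0.0938), Cenpf (-0.233 to 0.0438), Ube2c (-0.349 to 0.0398), Kif11 (-0.138 to 0.0839), Foxm1 (-0.319 to 0.0107) and Ccne2 (-0.461 to 0.0617). Mcm7 was 0.000243 with the block and 0.000248 with the crossed block, and Pcna -0.00526 in limma on log2(FPKM + 1). Between tissues, the mitosis median was 1.19 in limma on FPKM, 1.26 with library size alone, 0.853 within WT and 1.12 within Ahnak KO, and 0.853 to 1.12 when 1 library was left out. The replication median was 0.802 in limma and 0.852 with library size alone, where the median of all genes was 0.244 and 0.365. Replication genes higher in kidney numbered 4 within WT and 4 to 9 when 1 library was left out, and those lower numbered 0 with no filter, in limma, with library size alone and within either genotype, and 0 to 1 when 1 library was left out. E2f1 was 0.0117 in limma and 0.0474 with library size alone, and Gins2 -0.0157 within WT and -0.0161 to 0.172 when 1 library was left out. In ureter, the medians were -0.617 (mitosis) and -0.531 (replication) with library size alone and -0.614 and -0.534 with FPKM, where all genes had medians of -0.204 and -0.193. Nusap1, Mcm7 and Pcna fell below 0 there, at -0.107, -0.00151 and -0.125, and at -0.126, -0.0145 and -0.138. For the interaction, the medians were -0.432 and -0.364 with library size alone, and ran from -0.341 to -0.166 (mitosis) and -0.309 to -0.024 (replication) when 1 kidney library was left out. The cause was not tested for any of these. Every member had at least 321 counts in each library, and the effect of depth was not tested.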
